A study of Mus musculus with 3 samples.

Results

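Mir202 is a microRNA hairpin known in vertebrates for its expression in the gonads, among them the Sertoli cells of the mouse testis. It is 1 of the 2202 microRNA hairpins of GENCODE M21, and its reads were taken from small RNA libraries of fully grown mouse oocytes. A read was counted for Mir202 when, after removal of the 3′ linker, its first 20 nt matched the hairpin in sense without a mismatch (the whole insert at 18 or 19 nt). There were 3656 such reads in the 19-24 nt fraction, 47 in the 24-30 nt fraction and 15 in the 19-30 nt fraction, and none matched the opposite strand.

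Fully grown oocytes came from mice given 5 IU of PMSG, which makes follicles grow, 48 hours earlier. The oocyte RNA was cut from gels in windows of 19-24, 24-30 and 19-30 nt, with 1 library per window, here called a fraction, and no other treatment or genotype in the labels. The 19-24 and 24-30 nt fractions have reads of 26 nt from lanes of the same instrument, while the 19-30 nt fraction has 36 nt reads from another instrument, so that window and run cannot be told apart for it. The labels used here give neither strain nor age. Only oocyte RNA was sequenced, so these data cannot test enrichment in the gonad against other tissues. With 1 library per window, differences could not be checked against replicates. Ranges in parentheses after a share or ratio are 95% intervals that cover counting error in 1 library only, since PCR reads without molecular identifiers are not independent molecules.

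MicroRNAs are cut from a hairpin by Drosha and Dicer into a short duplex, of which one strand is kept by an Argonaute protein. Bases 2 to 8 of that strand, the seed, choose the mRNAs it acts on. Either arm of a hairpin can be kept, and the 5′ end of the kept strand fixes its seed.

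The hairpin lies on the minus strand of chromosome 7 (chr7:139957689-139957760, GRCm38) within an exon of the lincRNA gene Gm2044 (chr7:139957005-139958039). Its sequence is given with both annotated mature arms in capitals, as RefSeq gives it for GRCm38.p6, because the reads are placed on it by position.
Mir202 hairpin: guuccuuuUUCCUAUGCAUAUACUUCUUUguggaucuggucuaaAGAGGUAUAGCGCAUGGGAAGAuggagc
The annotated 5p arm covers bases 9 to 29 of the hairpin (21 nt) and the 3p arm bases 45 to 66 (22 nt), with 15 nt between them. In the predicted fold of lowest free energy (-35.5 kcal/mol), 18 of the 21 bases of the 5p arm paired with the 3p arm. The first base of the 5p arm paired with hairpin base 64 and the first base of the 3p arm with hairpin base 27, so each arm had a 3′ overhang of 2 nt, the shape that Drosha and Dicer leave.

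The mature arms are shown beside let-7a, let-7b and miR-98 with bases 2 to 8 in capitals, because the seed of the 3p arm is close to that of the let-7 family, widely expressed microRNAs known for their part in developmental timing.
miR-202-5p: uUCCUAUGcauauacuucuuu
miR-202-3p: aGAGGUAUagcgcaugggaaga
let-7a-5p: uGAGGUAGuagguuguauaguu
let-7b-5p: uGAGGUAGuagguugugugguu
miR-98-5p: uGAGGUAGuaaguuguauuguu
Bases 2 to 7 of miR-202-3p were shared by 12 of the 1679 mature microRNAs in the RefSeq table, and 9 of these were let-7 5p arms or miR-98-5p. With base 8 included, 1 other mature microRNA, let-7j, had the same seed. No other entry shared bases 2 to 7 of miR-202-5p.

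The first comparison asked how much of the microRNA in each window came from Mir202. Mir202 made up 1.47% of microRNA reads in the 19-24 nt fraction (Wilson interval 1.43 to 1.52), 0.185% in the 24-30 nt fraction (0.139 to 0.246) and 0.0405% in the 19-30 nt fraction (0.0246 to 0.0668). The level was thus highest in the window of the shortest RNA and lowest in the window that spans both, and the 3 intervals did not overlap. The order was the same under the settings that follow, but single shares moved by over 1.5 times. In the 19-30 nt fraction the share was 0.0702% with 1 mismatch allowed and 0.0662% with reads of a single hairpin only. The mismatch was allowed for Mir202 alone, with other hairpins matched exactly, which raises that share. With each distinct insert counted once the share was 0.437% in the 24-30 nt fraction. The shares at the main setting rest on 248073, 25394 and 37031 microRNA reads in the order of the windows above. A count of 0 would have allowed up to 0.00121%, 0.0118% and 0.0081%.

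**Figure D1:**
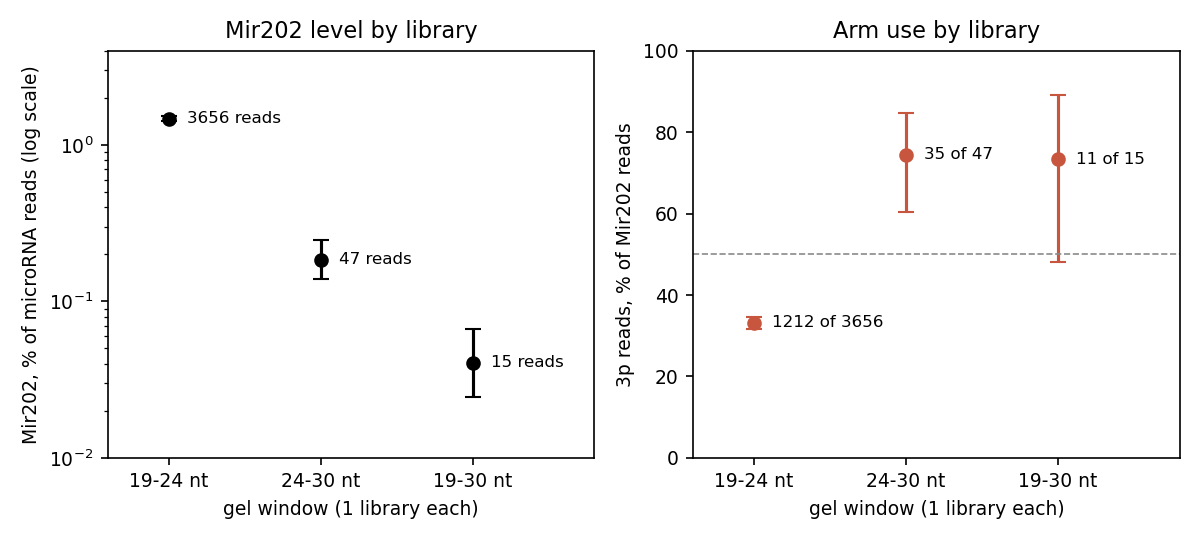
Left, Mir202 as a percentage of microRNA reads in each library, on a log axis. Right, the percentage of Mir202 reads that came from the 3p arm, with a dashed line at 50%. Points are single libraries and bars 95% Wilson intervals. Each fraction lies below the one to its left in level, and the 3p share lies below the line in the 19-24 nt fraction alone.

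In the 19-24 nt fraction the Mir202 share was 36.4-fold that of the 19-30 nt fraction (exact interval 22.03 to 65.1). Of the 196 hairpins with at least 100 reads over the 3 libraries, 45.4% had a ratio of at least 2 in this direction, and the median ratio was 1.75. The ratio of Mir202 was exceeded by 1 hairpin, Mir451a, the red cell microRNA, with 3108 and 10 reads. Against the 24-30 nt fraction the 19-24 nt share was 7.96-fold higher (5.98 to 10.9). There 57.1% of hairpins had a ratio of at least 2, the median was 2.69, and 36 hairpins exceeded Mir202.

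The 24-30 nt share was 4.57-fold that of the 19-30 nt fraction (2.51 to 8.8), with 29.6% of hairpins at a ratio of at least 2 and a median of 0.847. The ratios depended on the scale. Per usable insert those of the 19-24 nt fraction were 162 over the 24-30 nt and 267 over the 19-30 nt fraction, and with each distinct insert counted once they were 2.41 and 19.0. For the 24-30 over the 19-30 nt fraction, the ratio per read matching any annotated transcript was 1.78 (0.981 to 3.44), and per usable insert 1.65 (0.904 to 3.17). MicroRNA made up 1.77% of usable inserts in the 24-30 nt and 4.93% in the 19-30 nt fraction, against 36.1% in the 19-24 nt fraction.

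**Figure D2:**
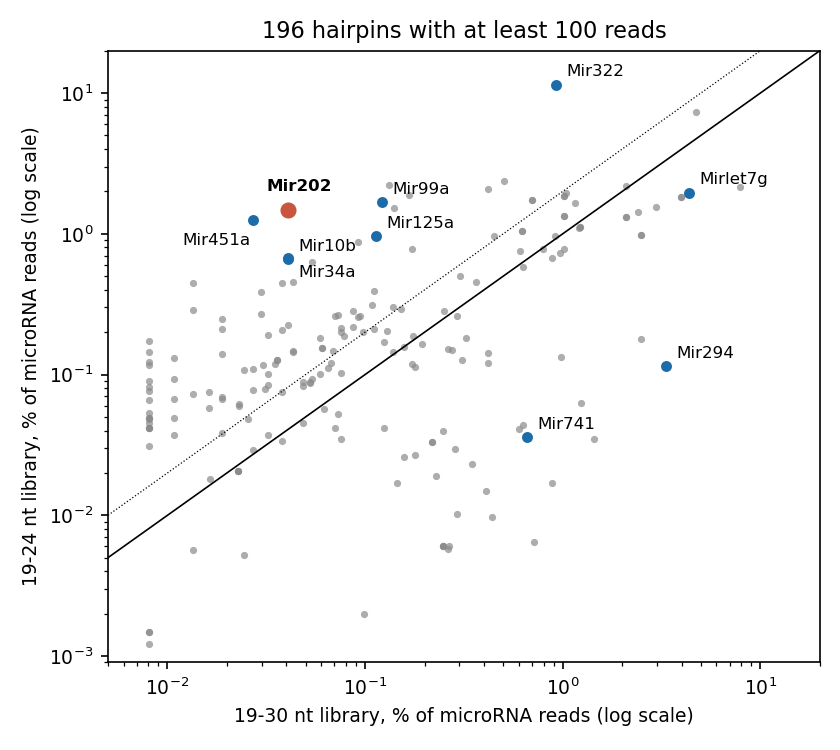
Each point is 1 of 196 hairpins with at least 100 reads over the 3 libraries, placed by its percentage of microRNA reads in the 19-30 nt fraction (x axis) and in the 19-24 nt fraction (y axis), both on log scales, with counts under 3 raised to 3. The solid line marks equal shares and the dotted line a ratio of 2. Mir202 (1.47% and 0.0405% in the 19-24 and 19-30 nt fractions) lies far above the dotted line beside Mir451a, Mir34a and Mir10b.

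By rank, Mir202 was number 21 of 887 hairpins with reads in the 19-24 nt fraction. Its neighbours were Mirlet7i (3828 reads) and Mir351 (3816) above, and Mir30e (3562) and Mir26a-2 (3301) below. The interval of Mir202 overlapped those of Mirlet7i (1.495 to 1.59%), Mir351 (1.49 to 1.59%) and Mir30e (1.39 to 1.48%), and not that of Mir26a-2 (1.29 to 1.38%). In the 24-30 nt fraction Mir202 was number 76 of 730, between Mir671 (49 reads) and Mir652 (48) and the hairpins Gm47276 and Gm47281 (46 each), none of which differed from it beyond counting error. In the 19-30 nt fraction it was number 228 of 753, with the same 15 reads as Mir10b, Mir205 and Mir34a, and next to Gm22616 (15.1 weighted reads).

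The hairpins most like Mir202 over the 3 libraries were Mir34a, Mir451a, Mir99a, Mir125a and Mir10b. Likeness was the distance of log2 shares over 3 libraries, among 196 hairpins, and ran between 1.15 for Mir34a and 1.75 for Mir10b. Mir34a, a p53 target in mammalian cells, had 1660, 53 and 15 reads in the 19-24, 24-30 and 19-30 nt fractions. Mir99a had 4166, 33 and 45 reads and Mir125a 2392, 30 and 42, so these were less low in the 19-30 nt fraction than Mir202. Mir10b, from a Hox cluster, had 1640, 19 and 15 reads.

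Lists of microRNAs that mark other cells of the ovary also took a larger share of the 19-24 than of the 19-30 nt fraction. The lists here and below were chosen with earlier results of these data known, so their counts describe these libraries and are not independent support. The 13 hairpins listed for granulosa cells, follicle or stroma took 20.1% of microRNA reads in the 19-24 nt fraction, 17.2% in the 24-30 nt fraction and 3.84% in the 19-30 nt fraction. Of the 9 of them with at least 100 reads, 8 were at least 2-fold higher and none at least 2-fold lower in the 19-24 than in the 19-30 nt fraction, beside 45.4% of all 196 hairpins higher and 22.4% lower, and the median ratio was 4.97 beside 1.75. Between the 19-24 and 24-30 nt fractions 7 were higher and 1, Mir351, lower, beside 57.1% and 20.4% of all hairpins. Between the 24-30 and 19-30 nt fractions 3 were higher and 3 lower, beside 29.6% and 42.9%, with a median ratio of 1.04. Mir199a-1 and Mir199a-2 had equal counts, as their reads were split between them, and were counted as separate members. The leading members in the 19-24 nt fraction were Mir322 (28524 reads), Mir503 (5540) and Mir21a (5386), while Mir351 led in the 24-30 nt fraction with 3769 reads, 86.3% of the list there. Without Mir351 the other 12 hairpins made up 18.6% of microRNA reads in the 19-24 nt fraction, 2.35% in the 24-30 nt fraction and 3.70% in the 19-30 nt fraction, so that the order of the last pair rested on this hairpin. Mir383 was at 0 in all 3 libraries, Mir224 in the 24-30 nt and Mir212 in the 19-30 nt fraction. Of all 2202 hairpins, 887, 730 and 753 had reads in the 19-24, 24-30 and 19-30 nt fractions. The 5 blood hairpins found under their listed symbol, of 6 listed, took 1.39%, 0.52% and 0.0486% in the same order, led by Mir451a. Mir142 was at 0 in the 24-30 and 19-30 nt fractions and Mir144 in the 24-30 nt fraction. Mir486, listed as Mir486a, was not counted in these sums and had 386, 43 and 22.5 weighted reads (0.156%, 0.169% and 0.0608%). In the 19-30 nt fraction this was more than the 18 reads of the 5 counted.

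The summed lists of germ cells and the early embryo were highest in the 19-30 nt fraction, where Mir202 was lowest, but members of the germ cell list differed. Of 20 hairpins listed for the X-linked germline cluster, 18 were found under their listed symbol. They took 0.458% of microRNA reads in the 19-24 nt fraction, 0.0591% in the 24-30 nt fraction and 2.49% in the 19-30 nt fraction. Mir465, listed as Mir465a, was not counted in these sums and had 11.4, 0 and 36.1 weighted reads. None of the 18 was at 0 in the 19-24 or 19-30 nt fraction, and 12 of the 18 were at 0 in the 24-30 nt fraction. Of all 2202 hairpins, 887, 730 and 753 had reads in the 19-24, 24-30 and 19-30 nt fractions, so zeros were common in each. Of the 5 list members with at least 100 reads, 4 were at least 2-fold lower in the 19-24 than in the 19-30 nt fraction. The other, Mir547, was at least 2-fold higher. Over all 196 hairpins these were 22.4% and 45.4%. Mir547 led the list in the 19-24 nt fraction with 718 reads, 63.2% of the list there, and had 5 reads in the 24-30 nt and 5 in the 19-30 nt fraction, the same direction as Mir202. Mir201, with fewer than 100 reads in all, had 85, 4 and 1. Mir741, the leading member of the 19-30 nt fraction, had 89, 2 and 245. Without Mir547 the list took 0.168%, 0.0394% and 2.47%. The 5 early embryo hairpins found under their listed symbol, of 6 listed, took 0.173%, 0.0197% and 4.23%, led by Mir294 (284, 3 and 1233 reads). Mir293 and Mir295 were at 0 in the 24-30 nt fraction. Mir292, listed as Mir292a, was not counted in these sums and had 155, 9 and 460 reads (0.0625%, 0.0354% and 1.24%). The part of these lists in the Mir202 ratios was not tested, and fewer cells of a type cannot be told apart from less RNA per cell in such bulk RNA.

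The let-7 family, the relatives of miR-202-3p by seed, went against Mir202 in sum between the 19-24 and 19-30 nt fractions, though members differed. Between the 19-24 and 24-30 nt fractions it had the direction of Mir202, with a median ratio near that of all hairpins. Its 12 hairpins took 14.8% of microRNA reads in the 19-24 nt fraction, 10.2% in the 24-30 nt fraction and 21.1% in the 19-30 nt fraction, a ratio of 0.699 between the 19-24 and 19-30 nt fractions (0.682 to 0.717), against 36.4 for Mir202. Of the 12, none was at least 2-fold higher and 3 were at least 2-fold lower in the 19-24 nt fraction, beside 45.4% and 22.4% of all hairpins. Their median ratio was 0.697 beside 1.75. Mirlet7b, Mirlet7c-1, Mirlet7c-2 and Mirlet7e had ratios between 1.42 and 1.93, the direction of Mir202, and the other members had ratios below 1. Against the 24-30 nt fraction, 9 of the 12 were at least 2-fold higher in the 19-24 nt fraction, the direction of Mir202, and 1 was lower. Over all hairpins these were 57.1% and 20.4%, and the median was 2.87 for the family beside 2.69. Copies that split shared reads, such as Mirlet7c-1 and Mirlet7c-2, were counted as separate members. Mirlet7g had 4864 reads in the 19-24 nt fraction and 1611 in the 19-30 nt fraction, Mirlet7i 3828 and 1100. By reads the family outnumbered Mir202 in each library, with 36647, 2581 and 7823 reads.

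The second comparison asked which arm of Mir202 was present. In the 19-24 nt fraction 2444 reads came from the 5p arm and 1212 from the 3p arm. In the 24-30 nt fraction 12 came from the 5p and 35 from the 3p arm, and in the 19-30 nt fraction 4 and 11. The 5p arm thus led in the 19-24 nt fraction and the 3p arm in the other libraries.

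The 3p share was 33.2% in the 19-24 nt fraction (Wilson interval 31.6 to 34.7), 74.5% in the 24-30 nt fraction (60.5 to 84.7) and 73.3% in the 19-30 nt fraction (48.1 to 89.1). The interval of the 19-30 nt fraction held 50%, so at 15 reads its leading arm was not settled, but it did not reach down to that of the 19-24 nt fraction. A change of leading arm was rare. Between the 19-24 and 19-30 nt fractions it was seen in 1.35% of the 148 hairpins with both arms annotated and at least 10 reads in each library (Mir202 and Mir465c-1), and none differed more in 3p share than Mir202, beside a median difference of 0.654 percentage points. Between the 19-24 and 24-30 nt fractions the leading arm differed in 2.88% of 104 hairpins (Mir202, Mir342 and Mir501), and 2 differed more in 3p share than Mir202. Between the 24-30 and 19-30 nt fractions it differed in 2.27% of 88 hairpins, and Mir202 was not among them.

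The arms therefore had unlike ratios. The 5p share of microRNA reads in the 19-24 nt fraction was 91.2-fold that of the 19-30 nt fraction (35.6 to 335) and the 3p share 16.4-fold (9.16 to 33). Against the 24-30 nt fraction the ratios were 20.8 for 5p (11.9 to 40.4) and 3.54 for 3p (2.53 to 5.11), intervals that do not overlap. Between the 24-30 and 19-30 nt fractions the arms had like ratios, 4.37 for 5p (1.33 to 18.6) and 4.64 for 3p (2.3 to 10.1). The arm shares depended on how reads were taken. Counting each distinct insert once gave 67.0% 3p in the 19-24 nt fraction, where the 3p arm had more distinct reads. Among them were unsized reads that differed only in misread linker bases, and reads that differed only at base 21, which was unreliable. Inserts sized at 19 to 22 nt alone gave 40% 3p in the 24-30 nt fraction (21.9 to 61.3). With a match over the first 18 nt the 3p share was 39.2% in the 19-24 nt and 82.6% in the 19-30 nt fraction.

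The 5′ ends were sharp in both arms. In the 19-24 nt fraction 2336 of 2444 5p reads (95.6%, 94.7 to 96.3) and 1178 of 1212 3p reads (97.2%, 96.1 to 98.0) began at the annotated first base. In the 24-30 nt fraction these were 11 of 12 and 30 of 35, and in the 19-30 nt fraction 4 of 4 and 10 of 11. All other reads began within 4 nt of an annotated 5′ end.

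**Figure D3:**
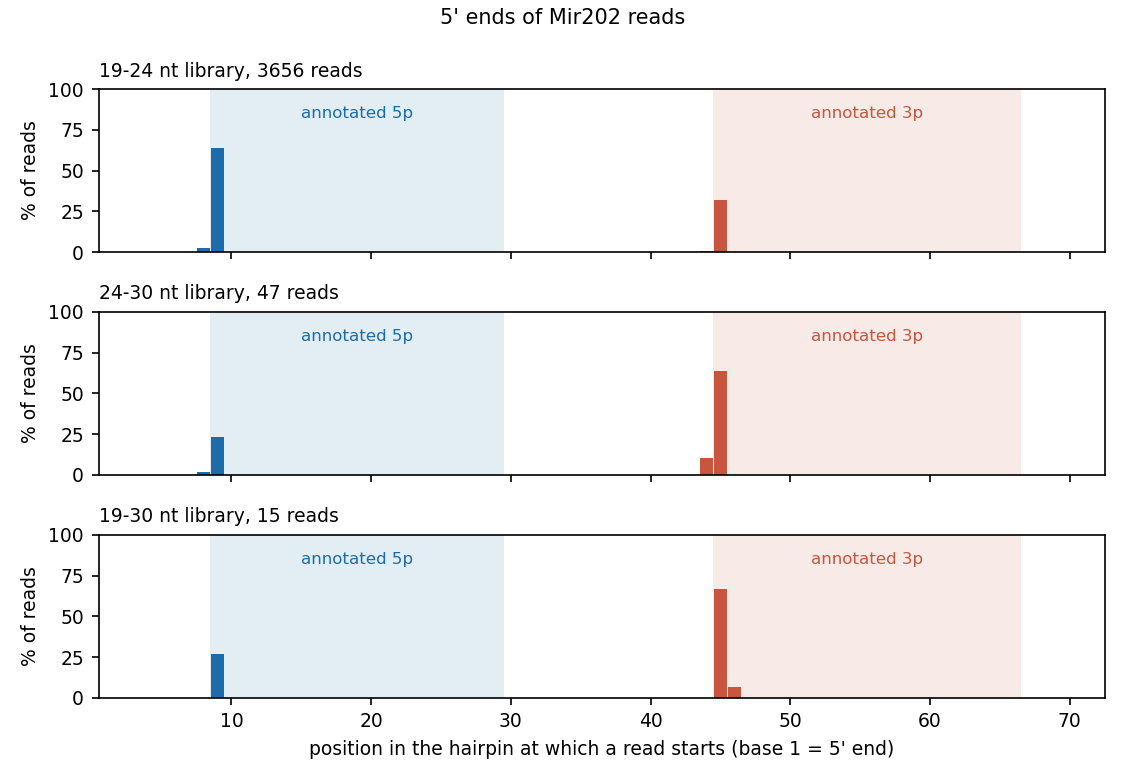
Percentage of Mir202 reads that start at each base of the hairpin (x axis, base 1 at its 5′ end), 1 panel per library. Shaded spans are the annotated arms. Nearly all reads start at base 9 or base 45, with the taller bar at base 9 in the 19-24 nt fraction and at base 45 in the other libraries.

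The most frequent other 5′ end lay 1 base upstream, which moves the seed by 1 base. In the 19-24 nt fraction it was used by 99 reads of the 5p arm (4.05%, 3.34 to 4.91) and 29 of the 3p arm (2.39%, 1.67 to 3.42), and in the 24-30 nt fraction by 1 and 5 reads. The 5 of 35 3p reads there (14.3%, 6.26 to 29.4) were a larger share than in the 19-24 nt fraction. The shifted seed of the 3p arm is AGAGGUA, which no mature microRNA of the table carries at bases 2 to 8, and that of the 5p arm UUCCUAU, likewise carried by none. The most frequent inserts of the 19-24 nt fraction with each 5′ end are shown as read, with bases 2 to 8 in capitals, to let the shift be seen.
5p, 1674 reads: tTCCTATGcatatacttcttt
5p, 1 base upstream, 60 reads: tTTCCTATgcatatacttcttt
3p, 119 reads: aGAGGTATagcgcatgggaaga
3p, 190 reads: aGAGGTATagcgcatgggaaca
The last pair differ at base 21, where the hairpin has G. Base 21 was called G in 29.0% of 1110 miR-202-3p reads in the 19-24 nt fraction and in 10 of 10 in the 19-30 nt fraction. Over 22 nt inserts of other hairpins 53.1% differed from the hairpin at this base in the 19-24 nt fraction and 3.10% in the 19-30 nt fraction, and no sequence difference is read from base 21 of the 26 nt reads.

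The arms also differed in length. In the 19-24 nt fraction 1963 of 2299 sized 5p inserts were 21 nt long (85.4%, 83.9 to 86.8), the annotated length, with 154 at 20 nt and 133 at 22 nt. Of 847 sized 3p inserts 550 were 22 nt long (64.9%, 61.7 to 68.1), again the annotated length, and 225 were 21 nt (26.6%, 23.7 to 29.6). In 26 nt reads the 4 linker bases left after 22 nt had to match in full, while shorter inserts allowed a mismatch. Inserts of 22 nt were thus sized less readily. With linker mismatches of up to 10%, 76.2% of sized 3p inserts were 22 nt. In the 19-30 nt fraction 8 of 11 3p inserts were 22 nt and 3 were 21 nt, and all 3 sized 5p inserts were 21 nt. Base 22 of those 8 inserts was A, as in the hairpin, in 4. Over 22 nt inserts of other hairpins there, 10.1% differed from the hairpin at this base.

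A read is called unsized where the linker was not found in it. Among 26 nt reads these are inserts of 23 nt or longer and inserts whose linker was misread. They made up 5.93% of 5p reads (5.06 to 6.94) and 30.1% of 3p reads (27.6 to 32.8) in the 19-24 nt fraction. The shares of the arms are not like for like, since inserts of 22 nt, the annotated 3p length, were sized less readily. Of the 345 unsized reads there at the annotated 3p start, 189 still showed the linker after base 22 with at most 1 of its 4 bases different or uncalled, and 40 showed it after base 23. Base 23 of those 40 was A in 19 and U in 18, where the hairpin has U. On the 5p arm, 63 inserts from the annotated start were 1 nt longer than annotated, and the added base was A in 35, U in 17 and G, the base of the hairpin, in 10.

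**Figure D4:**
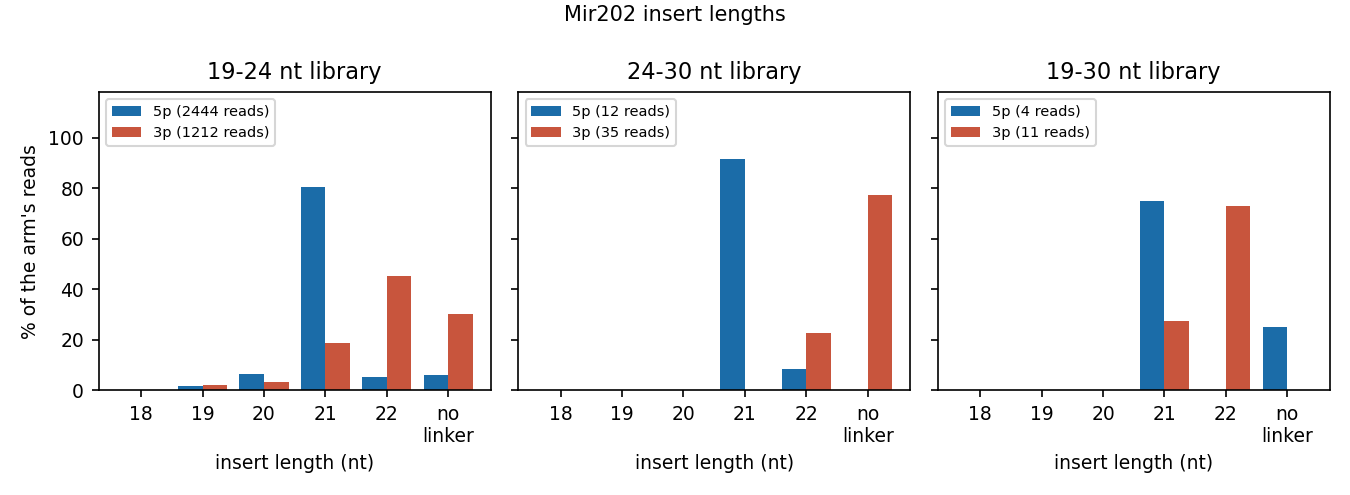
Percentage of the reads of each arm (5p blue, 3p red) by insert length in nt, 1 panel per library, with linker-free reads at the right. The 5p bars peak at 21 nt in each panel. The 3p bars peak at 22 nt in the 19-24 and 19-30 nt fractions and at the reads without a linker (27 of 35) in the 24-30 nt fraction.

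The arms separated most in the 24-30 nt fraction. All 12 of its 5p reads were sized, 11 at 21 nt and 1 at 22 nt, which is shorter than the window. Of its 35 3p reads only 8 were sized, each at 22 nt, and 27 were unsized (77.1%, 61.0 to 87.9). With all bases called past the annotated end, 21 unsized reads began at the annotated 3p start. In 2 of the 21 bases 23 to 26 matched the hairpin with at most 1 difference, and in 11 bases 23 to 25 were all U (52.4%, 32.4 to 71.7). In 16 of the 21 these 3 bases were A or U only (76.2%, 54.9 to 89.4). The hairpin reads UGGA at bases 23 to 26, so U at base 23 is also the base of the hairpin. At bases 24 and 25, where the hairpin has G, most of these reads had A or U.

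Reads of this kind are shown with the bases past the annotated 3′ end in capitals, the first from the 5 reads of that sequence and the others from 1 read each, followed by a read whose bases past the annotated end are those of the hairpin (its bases 21 and 22 are not).
3p, 5 reads: agaggtatagcgcatgggaacaTTTT
3p, 1 read: agaggtatagcgcatgggaagaTTTC
3p, 1 read: agaggtatagcgcatgggaagaTATT
3p, 1 base upstream, 1 read: aagaggtatagcgcatgggaagaATT
3p, last 4 bases as in the hairpin, 1 read: agaggtatagcgcatgggaatgTGGA
The lone C at the end of the second read is also the first base of the linker. The end of the last read also resembles the linker, with misread bases, after base 21, so whether it is hairpin sequence was not settled. The same sequence had 2 reads in the 19-24 nt fraction. With each distinct read counted once, the share with U at bases 23 to 25 was 41.2%.

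Such ends were also seen on other microRNAs of the 24-30 nt fraction, and miR-202-3p lay near the top. Over the 43 other arms of 20 to 22 nt with at least 15 such unsized reads, the median share with U at bases 23 to 25 was 13.6%, and 1 arm was higher, miR-186-5p with 61.5% (42.5 to 77.6, 16 of 26 reads), of whose reads 46.2% matched its own hairpin. Next below were let-7b-5p with 44.1% (41.3 to 47.0, 504 of 1142 reads), miR-196a-5p with 38.5% (22.4 to 57.5) and miR-34a-5p with 37.5% (24.2 to 53.0). The interval of miR-202-3p overlapped each of these. For A or U at bases 23 to 25, the median over the others was 50% and 7 were higher than miR-202-3p. In the 19-24 nt fraction, whose window ends at 24 nt, none of 271 unsized miR-202-3p reads had U at bases 23 to 25 (0%, up to 1.4), and the median over 115 other arms was 0.543%, with let-7b-5p highest at 23.6%.

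**Figure D5:**
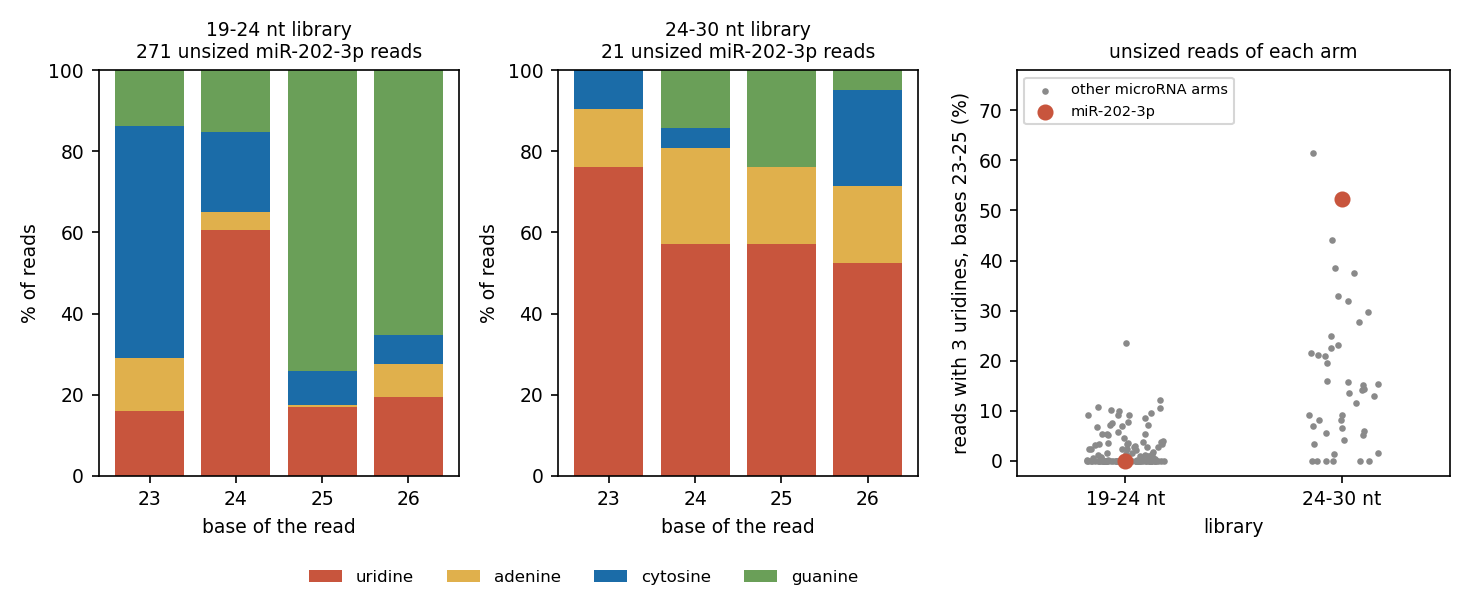
Left and middle, the base called at bases 23 to 26 of unsized miR-202-3p reads in the 19-24 nt fraction (271 reads) and the 24-30 nt fraction (21 reads), in percent. Right, the percentage of unsized reads with 3 uridines at bases 23 to 25 for each microRNA arm with at least 15 such reads, miR-202-3p in red. Cytosine, uridine and then guanine, as in the linker, lead in the 19-24 nt fraction, and uridine leads at each base in the 24-30 nt fraction.

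The rest of the locus gave few reads. Sense reads of Gm2044 outside the Mir202 hairpin numbered 18 in the 19-24 nt, 12 in the 24-30 nt and 0 in the 19-30 nt fraction. Of these, 14, 7 and 0 fell in mmu-mir-7686 (chr7:139957566-139957622, GRCm38), a further annotated microRNA on the same strand. Whether these reads also match elsewhere in the genome was not analysed here.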

How the data were processed

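The deposited files hold no counts but other values, namely untrimmed reads with base qualities. Per the labels' protocols, total RNA was extracted with Trizol, cut from polyacrylamide gels, ligated, amplified and sequenced. What trimming or alignment the authors ran, and on which build, was not stated in the labels. The 19-24, 24-30 and 19-30 nt libraries held 764539, 1484509 and 943811 reads, of which 686988, 1431084 and 751346 gave usable inserts of at least 18 nt.

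The linker was sought with an overlap of at least 4 bases (26 nt reads) or 6 bases (36 nt reads) and up to 20% mismatches. An overlap of 4 bases thus allowed no mismatch. Inserts up to 22 and 30 nt could be sized. Matching used the first 20 nt against GENCODE M21 hairpins (GRCm38), and a read of several hairpins was weighted by 1 over their number. Reads of 36 nt without a linker were kept as unsized. Base 21 of the 26 nt reads was unreliable. Trimming and matching were tested on simulated reads. Their error rate at base 21 was set below that seen in the 26 nt reads, so they do not measure length errors in these libraries. Intervals are Wilson for shares and exact conditional binomial for ratios. No test was made, as each fraction has a single library. The fold used RNAfold 2.7.2. The named hairpins were Mir202, its 2 neighbours on each side in rank, the 5 nearest in log2 share (counts floored at 3), up to 3 leading members of each list, and let-7, while others beside the arm and read end comparisons were named after their values were seen. The member and the lists were chosen with earlier results of these data known, and the comparison of read ends was added after the reads were seen. Alternatives varied the matched length, mismatches, linker settings, weighting, denominator and the counting of distinct inserts. Those on unsized 36 nt reads, linker mismatches of up to 25%, ratios by arm, 5p lengths, read ends and lists without 1 member were chosen after seeing the data.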

Additional observations from a re-analysis of the deposited data

How the results depend on the processing

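Of 211 recomputed values, 168 stayed the same, 41 moved and 2 turned the leading arm. A value stayed the same if it lay within the counting interval of the reported value. For the most similar hairpins, which have no interval, it meant the same 5 hairpins. Depth limits the 19-30 nt fraction most, with 15 reads, and causes of the changes below were not tested.
No paired analysis was possible because each window has 1 library and no test was made.

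The leading arm turned in 2 cases: 67.0% 3p with each distinct insert counted once (19-24 nt), and 40% with inserts of 19 to 22 nt alone (24-30 nt).
Matching 18 nt gave a 19-24 nt share of 1.38% and 39.2% 3p. Allowing 1 mismatch for Mir202 alone, with other hairpins matched exactly, raised its shares to 1.75%, 0.252% and 0.0702% (19-24, 24-30 and 19-30 nt). The 3p share was then 37.9% in the 19-24 nt fraction. Reads of a single hairpin gave 2.05% and 0.27% (19-24 and 24-30 nt), and leaving out the most abundant hairpin 1.67% (19-24 nt). Linker mismatches of up to 10% put 76.2% of sized 3p inserts at 22 nt and 87.2% of 5p inserts at 21 nt (19-24 nt), and of up to 25%, added later, 69.5% for 3p. Sized inserts alone gave 26.9% 3p and 98.5% of 3p reads at the annotated start (19-24 nt). With an overlap of 6 bases, inserts over 20 nt of 26 nt reads could not be sized, so lengths have no value.

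Per usable insert, the 19-24 over 24-30 nt ratio was 162 (5p 424, 3p 72.1), the 19-24 over 19-30 nt ratio 267 (5p 668, 3p 120.5) and the 24-30 over 19-30 nt ratio 1.65 (3p 1.67). Per read matching a transcript these were 86.7 (227, 38.6), 155 (388, 69.98) and 1.78 (3p 1.81).
With each distinct insert once, shares were 1.05% and 0.437% (19-24 and 24-30 nt), the 3p share 93.3% (24-30 nt), and the shares at the annotated start 80.6% for 5p and 88.5% for 3p (19-24 nt) and 50% for 5p (24-30 nt). The ratios were then 2.41 and 1.73 (both arms and 3p, 19-24 over 24-30 nt), 19.0 and 21.96 (both arms and 5p, 19-24 over 19-30 nt) and 10.3 (3p, 24-30 over 19-30 nt). All 5 most similar hairpins were the same with at least 30 reads and per usable insert.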
